A study of Rattus norvegicus with 6 samples.

Results

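The vascular endothelial growth factor (VEGF) family was followed in grafted rat corneas through 10 genes chosen by symbol, out of 17771 genes listed in the count table. They are 5 ligands (Vegfa, Vegfb, Pgf, Vegfc and Vegfd), 3 receptor tyrosine kinases (Flt1, Kdr and Flt4) and 2 neuropilin coreceptors (Nrp1 and Nrp2). All 10 symbols were found once. Bulk RNA sequencing was done on corneas of Wistar rats that carried grafts from SD (Sprague-Dawley) donor corneas. The resveratrol group (3 libraries) was given the plant polyphenol resveratrol by daily intraperitoneal injection, and the control group (3 libraries) was given saline in the same way, to day 7 after surgery. All 6 libraries thus came from grafted corneas, so no value here describes an unoperated cornea. The labels give neither age nor sex, and they do not say whether donor button and recipient rim were separated or whether each library came from its own animal. The p-values therefore speak only of the spread among these samples, and that spread may be technical.

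VEGF-A is the main growth factor of new blood vessels and acts through KDR (VEGFR-2), while FLT1 (VEGFR-1) binds VEGF-A, VEGF-B and PlGF (the product of Pgf) and, in a soluble form, acts as a trap for VEGF-A. VEGF-C and VEGF-D act through FLT4 (VEGFR-3), the receptor of lymphatic vessel growth, and neuropilins hold ligand and receptor together and also bind class 3 semaphorins. The cornea is normally free of blood and lymphatic vessels, in part through soluble FLT1, and vessels that grow into a graft bed are a known risk for rejection. Gene counts do not separate soluble from membrane FLT1, nor the splice forms of VEGF-A.

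Total counts were 36904770 to 37301669 in the resveratrol libraries and 35068936 to 37460756 in the control libraries, and 14213 genes passed the filter on low counts. An unexplained ending in the sample descriptions, Sep for replicate 1 of each group and Oct for replicates 2 and 3, divides the libraries as well. The defining keratin of corneal epithelium, Krt12, had a log2 fold change of 0.038, and the summed epithelial markers were at 81552 to 94670 CPM in resveratrol and 82854 to 90875 CPM in control. CPM are counts scaled to a common library size with TMM factors. FPKM, the authors' values per kilobase of gene model, are used to set 1 gene beside another.

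The means of 8 of the 9 tested VEGF genes were lower in resveratrol corneas than in control corneas, and only the mean of Vegfa was higher. Pgf, Vegfc, Flt1, Kdr and Nrp1 were lower in every resveratrol library than in any control library by CPM, at 0.455 to 0.71 of the control level. Vegfb, Flt4, Nrp2 and Vegfa overlapped between the groups. The median log2 fold change of the 9 genes was -0.49, against -0.0080 for all tested genes. By edgeR's quasi-likelihood test 0 of the 9 passed an adjusted p of 0.05, as did 0% of all tested genes (smallest adjusted p over all genes 0.1002). At an unadjusted p under 0.05 edgeR gave 5 of 9, all lower, where 11.7% of all tested genes were lower by that measure. DESeq2, run as an alternative, called 3 VEGF genes lower (Pgf, Flt1 and Nrp1) and 0 higher, where it called 4.46% of all genes with an adjusted p lower and 2.13% higher. Of all tested genes, 14.4% were lower and 12.2% higher in every resveratrol library than in any control library by CPM. Bulk RNA does not tell fewer cells of a type apart from less RNA per cell.

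**Figure D1:**
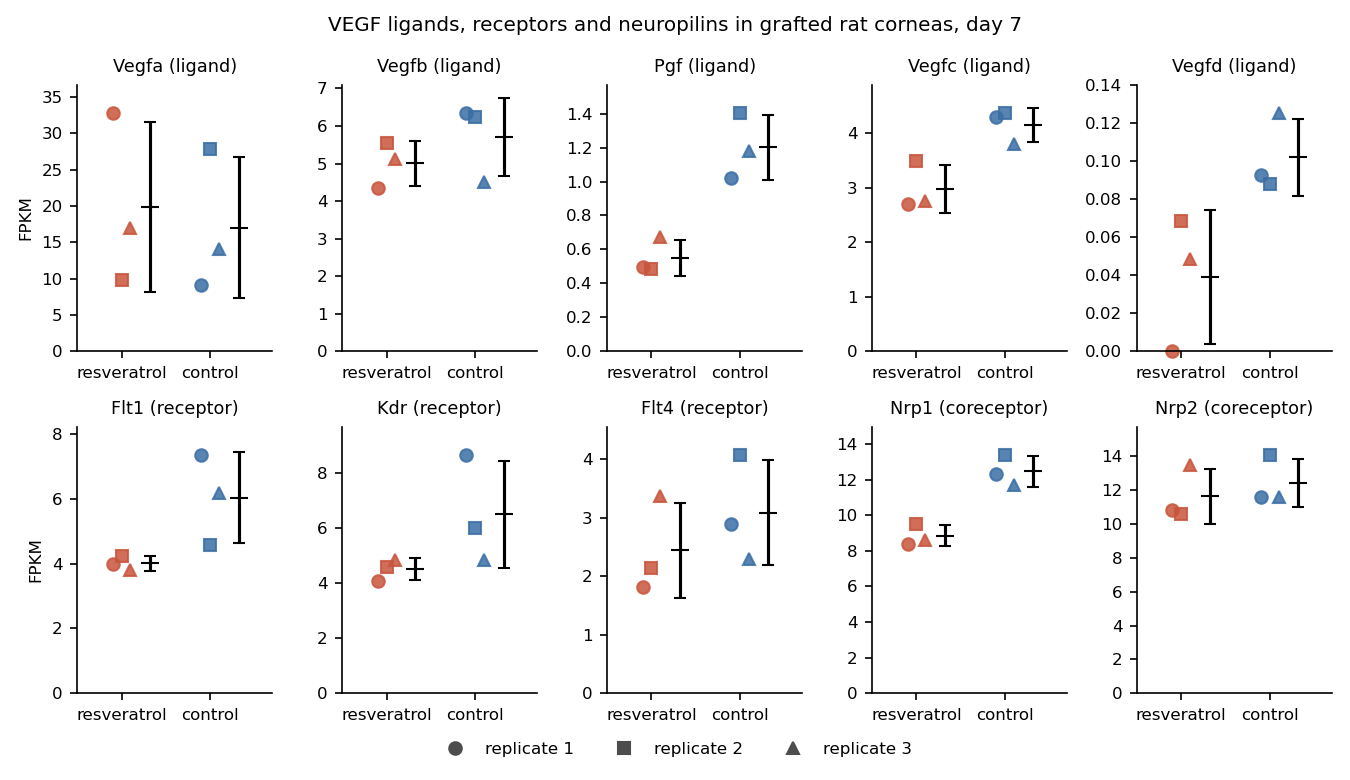
FPKM (vertical axis, from 0) of the 10 VEGF genes in the 3 resveratrol libraries (left in each panel) and the 3 control libraries (right). Symbols mark the replicate number and black bars the mean ± SD (n = 3); Nrp1 and Pgf separate by group, whereas Vegfa spans 9.87 to 32.8 FPKM in resveratrol and 9.08 to 27.9 FPKM in control.

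The DNA just upstream of the 3 genes that DESeq2 called is shown because 1 gene of each role is among them. The sequences are from RefSeq's rat assembly GRCr8 and hold the 250 bases before the gene's start, 5′ to 3′ on the gene's strand. Pgf lies at chr6:110557748-110557997 (minus strand), Flt1 at chr12:12333180-12333429 (plus strand) and Nrp1 at chr19:73256307-73256556 (plus strand). Capitals mark matches, on either strand, to the ETS core GGAA, the cyclic AMP response element TGACGTCA, the hypoxia response core ACGTG, the GC box GGGCGG and the TATA box TATAAA.
Pgf: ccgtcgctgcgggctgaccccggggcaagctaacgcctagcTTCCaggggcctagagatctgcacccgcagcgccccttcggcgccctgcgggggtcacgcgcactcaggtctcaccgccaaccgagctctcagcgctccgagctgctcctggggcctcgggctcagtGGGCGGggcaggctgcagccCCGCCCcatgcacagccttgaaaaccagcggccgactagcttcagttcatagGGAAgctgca
Flt1: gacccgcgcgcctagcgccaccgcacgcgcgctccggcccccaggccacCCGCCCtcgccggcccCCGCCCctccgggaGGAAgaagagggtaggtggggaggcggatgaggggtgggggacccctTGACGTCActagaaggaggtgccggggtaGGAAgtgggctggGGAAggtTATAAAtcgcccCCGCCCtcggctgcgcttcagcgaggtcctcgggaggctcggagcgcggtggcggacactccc
Nrp1: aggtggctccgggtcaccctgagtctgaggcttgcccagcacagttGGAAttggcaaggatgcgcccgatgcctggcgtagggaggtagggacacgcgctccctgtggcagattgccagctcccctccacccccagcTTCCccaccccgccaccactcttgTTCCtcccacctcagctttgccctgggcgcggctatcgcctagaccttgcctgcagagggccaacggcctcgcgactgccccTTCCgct

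The Flt1 window held 1 cyclic AMP response element, 3 ETS cores, 3 GC boxes and 1 TATA box. The Pgf window held 2 ETS cores and 2 GC boxes, and the Nrp1 window held 4 ETS cores and none of the other motifs. Over all 33469 windows of the table, 93.2% held an ETS core, 1.59% a cyclic AMP response element, 16.6% a hypoxia response core, 30.5% a GC box and 12.9% a TATA box. The ETS core is thus near universal at this length, and the cyclic AMP response element is rare. Among the 11 windows of the 10 VEGF genes (Vegfa has 2), the cyclic AMP response element occurred only in that of Flt1, and the letters of the hypoxia response core occurred in 0. These matches are letters in a window and were not tested for binding.

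Per kilobase of gene model, Vegfa had the highest mean of the family, at 18.5 FPKM over all 6 libraries. It was followed by Nrp2 at 12.0 and Nrp1 at 10.7 FPKM, then Kdr at 5.49, Vegfb at 5.35 and Flt1 at 5.01 FPKM. Vegfc (3.57 FPKM) and Flt4 (2.77 FPKM) came next, and Pgf (0.877 FPKM) and Vegfd (0.0706 FPKM) were lowest. Ranges of neighbours in this order overlapped down to Flt4, while Pgf lay below Flt4 and Vegfd below Pgf in 6 of 6 libraries. Vegfa exceeded Nrp2 in 4 of 6 libraries and Kdr exceeded Vegfb in 2 of 6, so the order within these pairs is not firm. The order also differed by group: Nrp1 averaged 8.85 FPKM in resveratrol and 12.5 FPKM in control, against 11.6 FPKM in resveratrol and 12.4 FPKM in control for Nrp2. Kdr averaged 4.50 FPKM in resveratrol, below Vegfb there, and 6.49 FPKM in control, above the 5.70 FPKM of Vegfb. By raw count Flt1 exceeded Kdr in every library, but the gene model that the authors used for Flt1 is 2.08 times as long as that for Kdr.

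Among the ligands, Pgf, which encodes placental growth factor, showed the largest fold difference of the tested VEGF genes. Its counts were low, at 29, 28 and 39 in resveratrol replicates 1, 2 and 3 and 56, 81 and 69 in control replicates 1, 2 and 3. In FPKM the resveratrol libraries were at 0.497, 0.485 and 0.674 and the control libraries at 1.02, 1.40 and 1.18. Every resveratrol value lay below every control value. The mean was 0.857 ± 0.149 CPM in resveratrol and 1.89 ± 0.299 CPM in control (SD, n = 3), a log2 fold change of -1.14 ± 0.26 (moderated standard error). DESeq2 called Pgf (adjusted p = 0.0249), whereas edgeR did not (adjusted p = 0.127). The DESeq2 call was kept without resveratrol 3 and lost without any other single library.

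Vegfc, a growth factor of lymphatic vessels, was at 4.32, 5.42 and 4.21 CPM in resveratrol and 6.78, 6.88 and 5.98 CPM in control replicates 1, 2 and 3. Its groups did not overlap, with resveratrol 2 the nearest to control. The means were 4.65 ± 0.671 CPM in resveratrol and 6.55 ± 0.497 CPM in control, with a log2 fold change of -0.49 ± 0.17. Neither edgeR (adjusted p = 0.187) nor DESeq2 (adjusted p = 0.121) called Vegfc. Vegfd, the other ligand of FLT4, was close to the limit of detection, with 0, 7 and 5 counts in resveratrol and 9, 9 and 13 counts in control. It did not pass the filter and was not tested by edgeR, and DESeq2 gave it an adjusted p of 0.493. The 0 counts in resveratrol 1 allow a level of up to 0.0804 CPM before scaling, counting error only.

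Vegfa, the ligand of both FLT1 and KDR, was at 131, 38.4 and 65.2 CPM in resveratrol replicates 1, 2 and 3 and at 35.9, 110 and 55.6 CPM in control replicates 1, 2 and 3. Its highest and lowest libraries stood in different groups, and the spread within each group was over 3-fold (3.41-fold in resveratrol, 3.06-fold in control). The group means were 78.3 ± 47.7 CPM in resveratrol and 67.2 ± 38.4 CPM in control, with a log2 fold change of 0.22 ± 0.51 (edgeR adjusted p = 0.843). The within-group SD of log2 CPM was 0.85 for Vegfa, larger than for 97.0% of tested genes. Without resveratrol 1 the fold change was -0.37 and without control 1 it was -0.077, so these data give no direction for Vegfa. Between the Sep libraries, 1 per group, Vegfa was higher in resveratrol by 1.87 on the log2 scale, while in the Oct libraries alone the log2 fold change was -0.67 (edgeR adjusted p = 0.406).

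Vegfb, a ligand of FLT1 but not of KDR or FLT4, was at 11.0, 13.7 and 12.4 CPM in resveratrol and 15.9, 15.6 and 11.3 CPM in control. Control 3 lay among the resveratrol values. The log2 fold change was -0.21 ± 0.17 (edgeR adjusted p = 0.520), between -0.35 and -0.12 with 1 library left out. Vegfa made up 81.3%, 50.8% and 66.5% of the summed ligand FPKM in resveratrol libraries and 43.6%, 69.7% and 59.5% in control libraries. The share of Pgf in that sum was 1.23% to 2.63% in resveratrol and 3.51% to 4.97% in control, with no overlap.

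Of the receptors, Flt1 was at 49.7, 51.5 and 45.2 CPM in resveratrol replicates 1, 2 and 3 and at 90.6, 56.1 and 75.9 CPM in control replicates 1, 2 and 3. The resveratrol libraries were close to each other, and control 2 was the control library nearest to them. The mean was 48.8 ± 3.21 CPM in resveratrol and 74.2 ± 17.3 CPM in control, a log2 fold change of -0.60 ± 0.17. DESeq2 called Flt1 (adjusted p = 0.0278), and edgeR did not (adjusted p = 0.140). With 1 library left out, DESeq2 called Flt1 only in the fit without control 2 (adjusted p = 9.25e-05).

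Kdr, the main signalling receptor for VEGF-A, was at 24.4, 26.7 and 27.9 CPM in resveratrol and 51.3, 35.5 and 28.7 CPM in control. Control 1 was far above the rest and control 3 almost met resveratrol 3. In FPKM, which lack the TMM scaling, control 3 (4.850) lay just below resveratrol 3 (4.852), so the groups overlapped slightly. The log2 fold change was -0.55 ± 0.20 with all libraries (edgeR adjusted p = 0.209, DESeq2 adjusted p = 0.122), between -0.72 and -0.28 with 1 library left out. DESeq2 called Kdr only without control 3 (adjusted p = 0.0126).

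Flt4, the receptor for VEGF-C and VEGF-D, was at 8.08, 9.26 and 14.3 CPM in resveratrol and 12.7, 17.8 and 10.1 CPM in control. The groups overlapped, with resveratrol 3 above 2 of the 3 control libraries. The log2 fold change was -0.36 ± 0.27 (edgeR adjusted p = 0.503), between -0.63 and -0.11 with 1 library left out. As shares of the summed receptor FPKM, Kdr made up 41.1% ± 0.652 in resveratrol and 41.0% ± 4.68 in control (SD, n = 3). The share of Flt1 was 36.9% ± 4.67 in resveratrol and 38.8% ± 7.57 in control, a difference smaller than either SD.

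Nrp1, the coreceptor that binds VEGF-A and semaphorin 3A, had the smallest p of the family. It was at 52.1, 57.4 and 51.2 CPM in resveratrol replicates 1, 2 and 3 and at 75.4, 81.8 and 71.4 CPM in control replicates 1, 2 and 3. The highest resveratrol library was 14.0 CPM below the lowest control library. The mean was 53.6 ± 3.36 CPM in resveratrol and 76.2 ± 5.22 CPM in control, a log2 fold change of -0.51 ± 0.085. The edgeR test gave an unadjusted p of 0.000437 and an adjusted p of 0.1002, so it did not pass. DESeq2 called Nrp1 with all libraries (adjusted p = 0.000414) and in all 9 further DESeq2 fits, which left out each library, added the replicate block or the Sep or Oct ending, or used the Oct libraries alone (adjusted p at most 0.0437). Those 9 fits reuse the same libraries and were added after seeing the data. Over the edgeR and limma alternatives the adjusted p of Nrp1 ran from 0.0807 to 0.280, so none called it. The log2 difference of Nrp1 was -0.53 between the Sep libraries, 1 per group, and -0.49 in the Oct libraries. The endings differed more for Kdr (-1.07 in Sep and -0.23 in Oct), Flt1 (-0.87 and -0.45), Flt4 (-0.65 and -0.24) and Vegfb (-0.53 and -0.043). For Pgf (-0.98 and -1.18) and Vegfc (-0.65 and -0.41) they differed less than for these genes but more than for Nrp1. Nrp2 differed little between the endings (-0.088 and -0.12), and Vegfa had opposite signs (1.87 in Sep and -0.67 in Oct).

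Nrp2, the coreceptor linked to VEGF-C and FLT4, was at 87.5, 83.3 and 104 CPM in resveratrol and 93.0, 112 and 92.3 CPM in control. The groups overlapped, and the log2 fold change was -0.11 ± 0.12 (edgeR adjusted p = 0.631). Within each library Nrp1 was thus a smaller part of neuropilin FPKM in resveratrol, at 43.7%, 47.4% and 39.0%, than in control, at 51.4%, 48.8% and 50.3%.

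**Figure D2:**
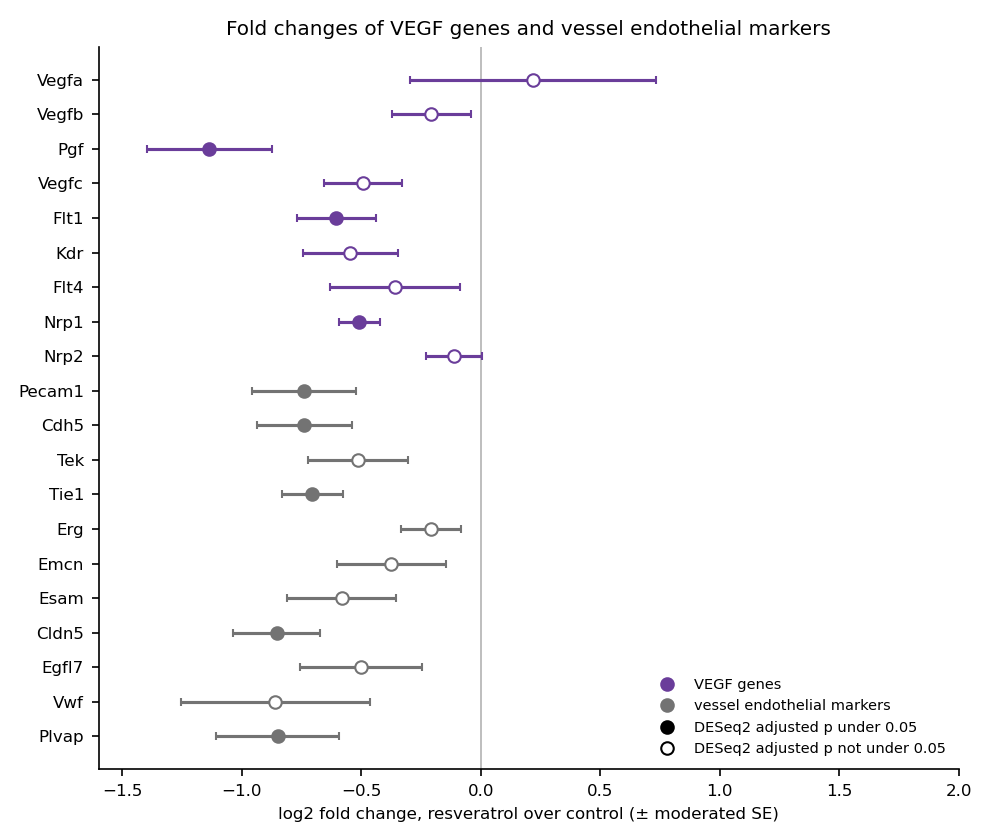
Log2 fold change (horizontal axis, resveratrol over control, edgeR) ± moderated SE for the 9 tested VEGF genes and 11 vessel endothelial markers (rows). Filled points had a DESeq2 adjusted p under 0.05; Pgf, Flt1 and Nrp1 are filled, 5 of the 11 markers are filled, and Vegfa alone lies above 0.

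Of 11 tested genes of blood vessel endothelium, 11 had a lower mean in resveratrol (median log2 difference -0.70), and 7 did not overlap between the groups. Of all tested genes 14.4% were lower without overlap, and DESeq2 called 4.46% of all genes with an adjusted p lower. The edgeR test called 0 of the 11 vessel genes and DESeq2 called Cdh5, Plvap, Pecam1, Tie1 and Cldn5, the last 3 named after their values were seen. Their summed level was 339 to 439 CPM in resveratrol and 519 to 783 CPM in control, and 0 of the markers found in the table were at 0 counts in any library. Cdh5, the junction cadherin of endothelium, was at 45.0, 66.5 and 74.9 CPM in resveratrol and 122, 99.9 and 89.1 CPM in control (log2 fold change -0.74 ± 0.20). The log2 fold change was -0.85 ± 0.26 for Plvap, a protein of fenestrated vessels, and -0.21 ± 0.13 for the endothelial transcription factor gene Erg. Macrophages also make VEGF ligands and FLT1, and 5 of their 7 markers had lower means (median -0.66; summed 308 to 455 CPM in resveratrol and 385 to 785 CPM in control). In that list Lyz2 differed by -0.80 ± 0.46, Cd14 by -0.25 ± 0.14 and Csf1r by -0.90 ± 0.24, and DESeq2 called Csf1r and Cd68 (named after its values were seen). The part of these cells in the VEGF gene differences was not tested.

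Of the other marker lists, 5 of 6 pericyte and smooth muscle genes had lower means (median -0.66; summed 818 to 858 CPM in resveratrol and 955 to 1151 CPM in control), among them Pdgfrb at -0.78 ± 0.14, Acta2 at -0.55 ± 0.24 and Notch3 at -0.11 ± 0.082. DESeq2 called Pdgfrb and Rgs5, the second named after its values were seen. Over all genes with an adjusted p it called 4.46% lower. Lymphatic endothelial genes had lower means in 4 of 5 (median -0.39), and 0 of them separated the groups. The summed level of the list, with the untested Prox1 included, was 157 to 246 CPM in resveratrol and 177 to 282 CPM in control. Most of it came from Pdpn, which epithelial and stromal cells also make. Prox1, the transcription factor that defines lymphatic endothelium, did not pass the filter. Ccl21, a chemokine of lymphatic vessels, differed by -0.48 ± 0.40, Mmrn1 by -0.39 ± 0.44 and Pdpn by 0.15 ± 0.17. The 4 tested T cell genes all had lower means (median -1.47). With Cd3d, which was not tested, the list summed to 3.55 to 4.13 CPM in resveratrol and 5.50 to 14.3 CPM in control. Lck differed by -0.97 ± 0.34 and Cd3e by -1.90 ± 0.55, and Cd2 was at 0.901 to 1.10 CPM in resveratrol and 1.66 to 3.16 CPM in control. DESeq2 called Cd3e and Cd2.

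Corneal epithelial genes had a median of 0.035 (2 of 6 lower), with Krt12 at 0.038 ± 0.26, Krt5 at 0.032 ± 0.24 and Krt14 at -0.20 ± 0.19. These errors are moderated toward a trend over genes and can exceed a gene's own spread. Krt12 itself ranged over 31838 to 37566 CPM in resveratrol and 33049 to 35194 CPM in control. Keratocyte genes had a median of -0.23 (4 of 4 lower), with Lum at -0.26 ± 0.14, Dcn at -0.071 ± 0.21 and Col5a1 at -0.90 ± 0.26. Corneal endothelial genes had a median of 0.0016 (2 of 4 lower), with Col8a2 at -0.33 ± 0.16, Col8a1 at -0.72 ± 0.17 and Slc4a4 at 0.33 ± 0.24. In these lists DESeq2 called Col5a1 and Col8a1, both lower, where 4.46% of all genes with an adjusted p were called lower. Red blood cell genes had a median of -0.44 (3 of 3 lower), with Hba-a1 at -0.44 ± 0.38, Hbb at -0.40 ± 0.46 and Hba-a2 at -0.78 ± 0.33; globin genes have near-identical copies, so these levels are uncertain. By edgeR 0 genes of the 9 marker lists passed.

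Ratios within a library do not depend on scaling between libraries, and 8 were compared by an exact two-sided permutation test, for which the smallest p with 3 libraries against 3 is 0.1. Relative to the mean log2 count of 11 vessel markers, Flt1 was at 0.76 ± 0.29 in resveratrol and 0.72 ± 0.29 in control (log2 ratio, SD, n = 3, exact p = 0.7). Kdr was at -0.13 ± 0.15 in resveratrol and -0.24 ± 0.13 in control on the same scale (exact p = 0.4). The groups overlapped in both ratios. Even full separation would have given a p of 0.1, which is above the threshold used for calls. With 3 libraries a group the test therefore cannot decide whether these receptors differed beyond the vessel markers. Flt4 over the vessel markers differed by 0.25 (exact p = 0.4) and over the lymphatic markers by 0.032 (exact p = 0.9), again with overlap.

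The ratio of Nrp1 to Nrp2 was lower in every resveratrol library, at -0.75, -0.54 and -1.03, than in any control library, at -0.30, -0.46 and -0.37 (log2; exact p = 0.1, the smallest possible). Adjusted over the 8 ratios this p was 0.8, and it was 0.9 for each of the others. Flt1 over Kdr was at 0.89 ± 0.17 in resveratrol and 0.96 ± 0.39 in control (exact p = 0.9). Vegfa over Kdr was at 2.42, 0.53 and 1.23 in resveratrol and -0.51, 1.63 and 0.95 in control, with overlap (exact p = 0.5). These are ratios of counts, and per kilobase Vegfa exceeded Kdr in 6 of 6 libraries. Vegfc over Flt4 differed by -0.14 (exact p = 0.7).

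**Figure D3:**
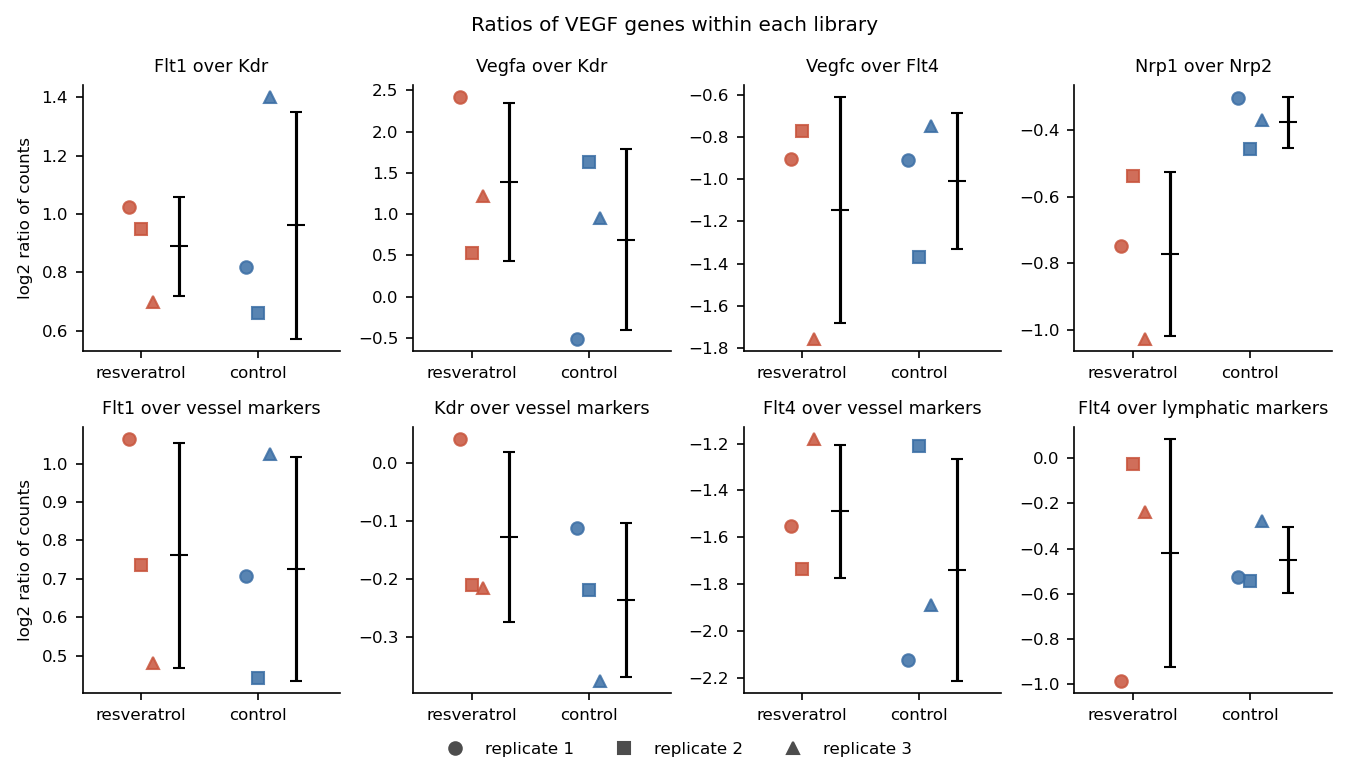
Log2 ratio of counts within each library (vertical axis) for the 8 ratios, with resveratrol left and control right in each panel, symbols for the replicate number, and mean ± SD in black (n = 3). Nrp1 over Nrp2 separates the groups; the other 7 ratios overlap.

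The other genes of the pathway were taken from 6 lists, and edgeR called 0 of them; values beside a gene are log2 fold changes ± SE. Downstream signalling genes (30 tested) were split between 13 lower and 17 higher means, with a median of 0.0022. DESeq2 called 1 of the 30 lower, a share below the 4.46% it called lower over all genes; this gene was Nos3, the endothelial nitric oxide synthase, named after its values were seen, at 10.3, 11.3 and 10.6 CPM in resveratrol and 18.1, 18.1 and 16.2 CPM in control (-0.70 ± 0.11, DESeq2 adjusted p = 2.37e-05). The most abundant members, Cdc42 (0.00056 ± 0.068), Rac1 (0.058 ± 0.069) and Hspb1 (-0.27 ± 0.085), are made by most cell types. Genes that endothelium switches on in response to VEGF had lower means in 10 of 12 (median -0.28), with Nrarp at 0.26 ± 0.25, Ets1 at -0.12 ± 0.17 and Rcan1 at 0.12 ± 0.10. DESeq2 called Angpt2, which destabilises vessels, named after its values were seen (-0.75 ± 0.22, DESeq2 adjusted p = 0.038).

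Among the semaphorins and plexins that share the neuropilins (12 tested, 7 lower, median -0.28), DESeq2 called 2 lower and 1 higher. Over all genes with an adjusted p it called 4.46% lower and 2.13% higher. Plxnd1, the semaphorin 3E receptor of endothelium, was at 48.3, 57.9 and 72.6 CPM in resveratrol and 159, 98.6 and 85.6 CPM in control (-0.94 ± 0.24, DESeq2 adjusted p = 0.00834). Sema3g, named after its values were seen, was at 7.16, 9.34 and 8.08 CPM in resveratrol and 17.6, 13.7 and 14.6 CPM in control (-0.90 ± 0.15, DESeq2 adjusted p = 0.000117). Sema3c, likewise named afterwards, went the other way, at 66.8, 68.2 and 74.6 CPM in resveratrol and 55.7, 48.6 and 38.5 CPM in control (0.55 ± 0.14, DESeq2 adjusted p = 0.00915). Plxna1 (0.17 ± 0.15) and Sema3f (0.041 ± 0.082) overlapped between the groups.

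Genes of VEGF-C and VEGF-D processing had lower means in 5 of 6 (median -0.41), and DESeq2 called 0. The most abundant, Ctsd (-0.060 ± 0.11), Furin (-0.087 ± 0.092) and Pcsk7 (0.084 ± 0.082), overlapped between the groups. Receptor partners and trafficking genes had a median of -0.032 (7 of 12 lower), with Itgav at -0.046 ± 0.089, Gipc1 at -0.019 ± 0.089 and Myo6 at 0.060 ± 0.12. DESeq2 called Itgb3, the integrin beta 3 chain that pairs with KDR and is also a platelet protein, named after its values were seen (-1.21 ± 0.30, DESeq2 adjusted p = 0.00533). Over all genes with an adjusted p it called 4.46% lower. Oxygen sensing genes, which control Vegfa transcription, had a median of -0.024 (5 of 8 lower), and DESeq2 called 0. Egln3, itself raised by low oxygen, was at 244, 260 and 239 CPM in resveratrol and 220, 367 and 342 CPM in control. Epas1 was at 338, 257 and 225 CPM in resveratrol and 283, 262 and 217 CPM in control (0.11 ± 0.16). Hif1a was at 279, 189 and 272 CPM in resveratrol and 211, 218 and 173 CPM in control (0.30 ± 0.17). Vegfa, Epas1 and Hif1a were each highest in resveratrol 1, and Egln3 was highest in control 2. Vegfa and Egln3 were both lowest in control 1, whereas Epas1 and Hif1a were lowest in control 3. A link between these genes and the level of Vegfa was not tested.

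**Figure D4:**
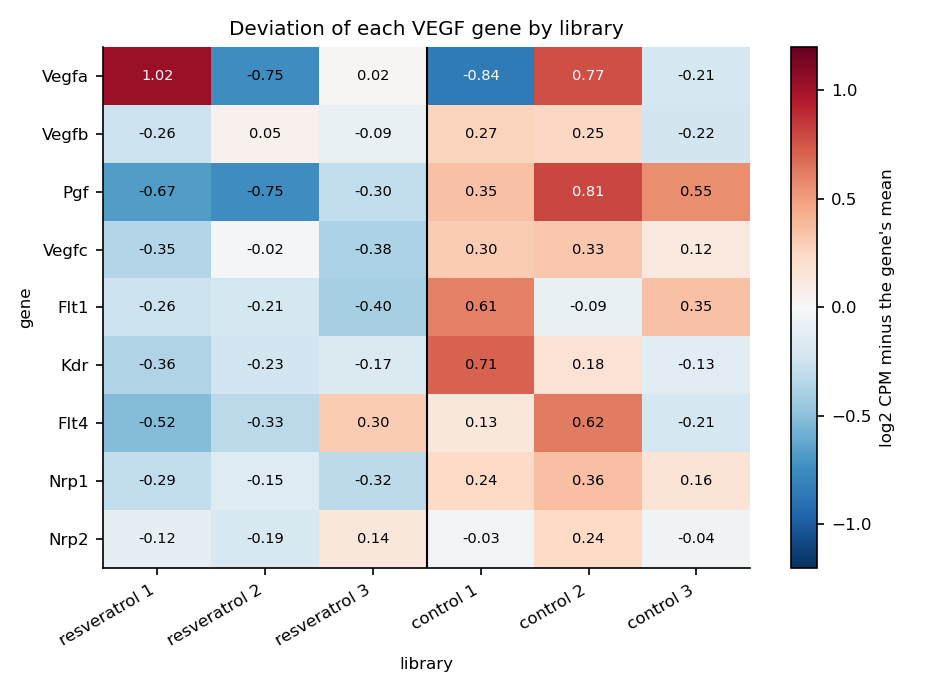
Log2 CPM of each tested VEGF gene (rows) minus its mean over the 6 libraries (columns, resveratrol left of the line, control right). Pgf, Vegfc, Flt1, Kdr and Nrp1 are below 0 in all resveratrol libraries and above 0 in control ones except Flt1 in control 2 (-0.09) and Kdr in control 3 (-0.13), whereas Vegfa runs from 1.02 in resveratrol 1 to -0.84 in control 1.

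Over the 6 libraries the members varied in different ways, which is given as a description since group, library and depth are shared by all points. Nrp1 and Vegfc had a Pearson correlation of log2 CPM of 0.97, and Flt4 and Nrp2 of 0.93, while Flt1 and Flt4 were at 0.048. Vegfa was at -0.51 with Flt1 and -0.42 with Kdr. The genes whose pattern was most like that of Kdr over the 6 libraries were Ano1 (r = 0.995), Ccdc92b (0.992) and Htr7 (0.992), each, like Kdr, highest in control 1. For Vegfa they were Atp7a (0.980), Ndfip2 (0.977) and Nrbp2 (0.976), and for Flt4 they were Selenok (0.982), Ercc1 (0.981) and Clic4 (0.976). Among these, Atp7a, the copper transporter, ranged only over 18.8 to 24.7 CPM in resveratrol and 17.0 to 24.1 CPM in control. All these matches are the highest values of a search over many genes with only 6 libraries. Correlations this high can arise in such a search without a link between the genes.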

How the data were processed

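RNA from corneas was sequenced as 150 bp paired-end Illumina reads, per the labels' protocols. The authors deposited raw gene counts and FPKM values, per the file headers and values; the submitters' processing notes name mRatBN7.2, R 3.2.0 and DESeq2 without roles. The aligner, counter, annotation and strand setting were not stated in any source used. The count header lacks a separator, so columns were assigned by name and checked against each library's FPKM.

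Counts were filtered with filterByExpr, scaled with TMM and tested with edgeR 4.0.16 (glmQLFit, glmQLFTest, no covariate), with Benjamini-Hochberg adjustment over 14213 genes; calls needed an adjusted p under 0.05. Genes that failed the filter made up 0.0237% of counts. Standard errors came from limma 3.58.1 (log2 CPM, prior count 2), moderated toward a trend of variance with level, and stand beside edgeR fold changes. DESeq2 1.42.0 ran with defaults, and gave adjusted p-values for 15010 genes. Ratios used counts + 0.5. Both tools were first tested on simulated data, where both missed most of the smallest changes, edgeR more of them than DESeq2. In that simulation a larger share of DESeq2's calls than of edgeR's fell on unchanged genes, above the nominal rate. It was a single draw from edgeR's own dispersions with few genes changed, so these rates need not hold here. DESeq2 calls are to be read with both points in mind. Counts differed between any 2 libraries beyond sampling noise, with a chi-square of 27.5 to 81.4 per degree of freedom. With 250 bases per window, promoters came from RefSeq (GRCr8), where all 10 genes matched; file coordinates were not used.

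The members, gene lists and alternatives were chosen with earlier results of these data known. Named genes were the 10 members, the 3 most abundant tested genes of each list, and the 3 genes nearest to Vegfa, Kdr and Flt4 by correlation (mean CPM of at least 1); others are marked where named. Alternatives covered scaling, filters, tools, replicate block, Sep or Oct ending, FPKM, thresholds and leaving out each library.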

Additional observations from a re-analysis of the deposited data

How the results depend on the processing

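By edgeR and limma 0 VEGF genes were called under every alternative run, and 0 genes over the whole table except without resveratrol 2 (1 gene) or control 3 (21 genes). DESeq2 called 990 genes, 3 of them VEGF genes. DESeq2 fits on fewer libraries or with a further term were added after seeing the data. They called 1094 genes (3 VEGF genes) with the Sep or Oct ending, 662 (2) with the replicate block and 406 (1) in the Oct libraries alone. With 1 library left out DESeq2 called 530, 642 and 817 genes without resveratrol 1, 2 and 3 (1, 1 and 2 VEGF genes) and 623, 390 and 1027 without control 1, 2 and 3 (1, 2 and 2). The edgeR fit with the replicate block called 0 genes and gave Vegfa 0.20. Deviations of same-numbered libraries correlated at -0.0044, -0.012 and -0.023. These values show no shared deviation, but they cannot tell whether the numbers pair samples.

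Vegfa was -0.67 in the Oct libraries alone (DESeq2 -0.66) and -0.37 to 0.77 with 1 library left out (DESeq2 -0.35 without resveratrol 1, -0.072 without control 1). Nrp2 was 0.00041 by DESeq2 without control 2, against -0.21 to -0.014 by edgeR with 1 library left out. In the Oct libraries alone Vegfa over Kdr was -0.42 and Flt1 over the vessel markers -0.12, and with FPKM Flt4 over the lymphatic markers was -0.044. With 1 library left out the log2 differences ran from -0.22 to 0.15 for Flt1 over Kdr, -0.32 to 0.17 for Vegfc over Flt4, -0.12 to 0.19 for Flt1 over the vessel markers and -0.16 to 0.32 for Flt4 over the lymphatic markers. The cause was not tested. Depth limits Vegfd, with at most 13 counts in a library, and Pgf, with at most 81.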

Other observations

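The ratios of Nrp1 and Pgf to the vessel markers were computed after their values were seen. Nrp1 over the 11 vessel markers was at 1.13, 0.89 and 0.66 in resveratrol and 0.44, 0.99 and 0.94 in control replicates 1, 2 and 3 (log2), a difference of 0.11 with overlap (exact permutation p = 0.7). Pgf over the vessel markers was at -4.88, -5.34 and -4.96 in resveratrol and -5.10, -4.22 and -4.32 in control, a difference of -0.51 with overlap (exact permutation p = 0.3). Adjusted over these 2 ratios the values were 0.7 for Nrp1 and 0.6 for Pgf.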
